A study of Nothobranchius furzeri with 19 samples.

Results

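The genes described here were expressed at a higher level in male than in female trunks of *Nothobranchius furzeri* at hatching and again at 3 days post hatching (dph), while the sexes overlapped in the embryo at 10 days post fertilization (dpf). They were chosen from the expression values themselves. Levels were taken as log2(CPM + 1), where CPM stands for counts per 1000000 counts of the library. A gene was a member if, at both 0 and 3 dph, its lowest male library lay above its highest female library and the male mean exceeded the female mean by at least 0.5 on this log2 scale. The libraries of the sexes had to overlap at 10 dpf, and the mean over the 11 trunk libraries had to reach 1 CPM. Of 26740 genes in the table, 18507 reached that mean, and 52 were members. Without the condition on 10 dpf the number was 64, and the same rule with the sexes exchanged gave 713 genes. The sex differences given below are therefore the values that chose the genes. They are a description, without a test.

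How many genes met the rule depended on the scaling of the libraries and on single libraries. With median-of-ratios scaling in place of column totals 156 genes met it, 49 of the 52 among them, and with TMM library sizes 138, again with 49. Leaving out male 0 dph replicate 1 gave 144 genes, male 3 dph replicate 2 gave 116 and female 0 dph replicate 1 gave 90, and leaving out each of the other 8 libraries gave 49 to 69. Membership also changed: without male 3 dph replicate 3, 63 genes met the rule, with 38 of the 52 among them. Without female 0 dph replicate 1 or 2, 45 and 43 of the 52 were kept, and with a pseudocount of 5, 25.

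All libraries came from the strain GRZ, a short-lived inbred laboratory strain of this annual killifish. Groups were defined by sex, age and tissue, and the labels name no treatment. Whole embryos were taken at 10 dpf (3 female and 3 male libraries), trunks at the day of hatching, 0 dph (2 female and 3 male), and trunks at 3 dph (3 of each sex). At 3 months of age there was 1 ovary and 1 testis. The labels do not say whether the replicates came from separate animals or pools, so p-values measure the spread between these libraries, which may be technical.

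In *N. furzeri*, as in other vertebrates, a trunk sample holds the young gonad together with gut, liver, kidney, muscle and skin, so RNA of the gonad is a small part of the whole. Around hatching, fish change from yolk to external food. The absorptive cells of the gut then carry a brush border, a lawn of microvilli with digestive enzymes and transporters at the surface, and nuclear receptors such as hnf4a are known from mammals and zebrafish to control many of the genes used there.

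The embryo libraries comprised 15563687 to 19943569 counts, the trunk libraries 17324478 to 20218857 on the day of hatching and 25600939 to 31493908 afterwards, the ovary 25875516 and the testis 11717979. The 10 most abundant genes of a library took 3.94% to 5.46% of the counts at 10 dpf, 10.9% to 13.1% at 0 dph and 20.4% to 29.5% at 3 dph. The ovary library had 585 CPM of sybu, a gene of the oocyte list, against 1.62 CPM in the testis library, and cyp11c1 (Nfu_g_1_001333), which encodes an enzyme of 11-oxygenated androgen synthesis, had 16.1 CPM in the testis and 0.425 CPM in the ovary. In 2 male libraries the members were low. Male 3 dph replicate 2 was the lowest male library for 46 of the 52 genes, and male 0 dph replicate 1 for 36 of them.

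Symbols were available for 7 members. They were taken from zebrafish orthologues that the study assigned to its gene models, and the list used here covers only 2671 of the 26740 genes. The other 45 members are given by their identifiers, without a name or role. The 7 were chia.3 and chia.6, named after acidic chitinases, which break down chitin, hnf4a, a nuclear receptor of liver, gut and kidney, slc5a9, a sodium-coupled sugar transporter, FOLR4, a folate receptor family gene whose mouse product Juno is the egg's receptor for the sperm protein Izumo1, and si:dkey-70p6.1 and zgc:101640, which carry only zebrafish clone names.

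Over the 52 genes, the median male minus female difference was 0.11 at 10 dpf, 0.96 at 0 dph and 0.75 at 3 dph on the log2(CPM + 1) scale. The last pair corresponds to 1.95-fold and 1.68-fold in CPM + 1. Over all 18507 genes that reached the mean of 1 CPM, the medians were -0.03, -0.19 and 0.02. Among members the difference lay between 0.50 and 1.79 at hatching and between 0.52 and 1.147 at 3 dph. In CPM + 1, the difference reached 2-fold for 22 members at 0 dph, for 2 at 3 dph, and for 1, Nfu_g_1_006401, at both. On this scale it was larger at 0 dph for 40 members and larger at 3 dph for 12. The added 1 lowers a fold most where CPM is low, and most members were lower at 3 dph. These counts therefore depend partly on the scale. Without male 3 dph replicate 2, the median at 3 dph was 1.01 and 27 members reached 2-fold there. The plot of the difference at 0 dph against that at 3 dph shows most genes below the line of equality.

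**Figure D1:**
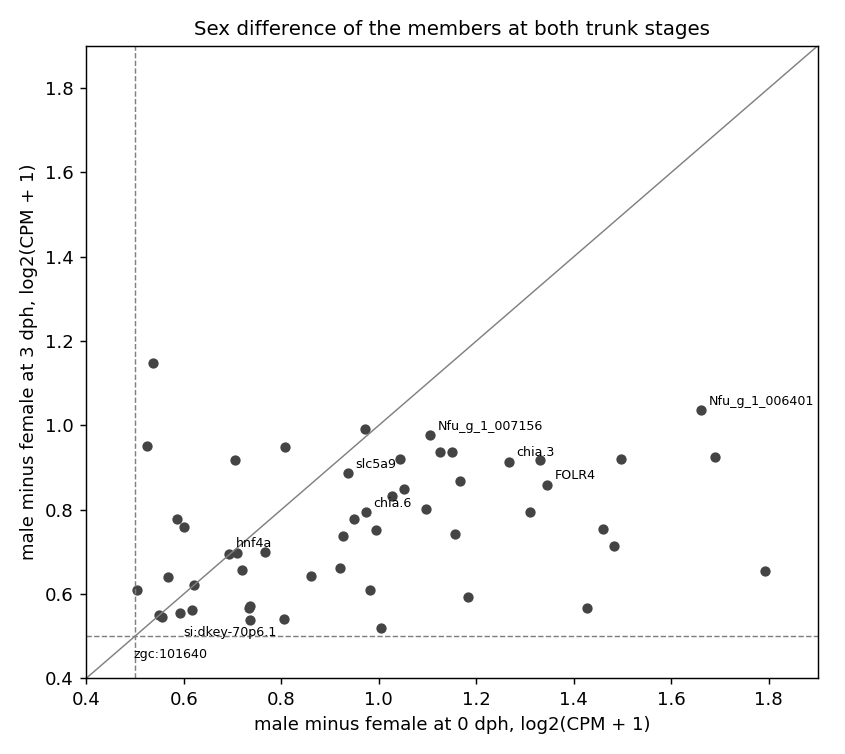
Male minus female mean level of each of the 52 genes at 0 dph (horizontal axis) and 3 dph (vertical axis), in log2(CPM + 1); each point is 1 gene, dashed lines mark the minimum of 0.5 and the solid line marks equal differences. For 40 genes the point lies on the side of the larger difference at 0 dph, and Nfu_g_1_006401 is the gene above 1 on both axes.

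Every member had to be separated between the sexes in the trunk, so the count is fixed at 52 of 52. Among all genes with a mean of at least 1 CPM, the male libraries lay above the female libraries for 6.62% at 0 dph, 11.5% at 3 dph and 4.25% at 10 dpf. By DESeq2 with an adjusted p under 0.05, 32 members were called male-higher at 0 dph and 52 at 3 dph, with 1.20% and 5.19% of all genes tested called in that direction. At 10 dpf, 0 of the 34 members with an adjusted p were called, with 0.0544% of all genes. By edgeR the members called were 1, 31 and 0 at 0 dph, 3 dph and 10 dpf. Over all genes tested, 7 of 19997, 709 of 20557 and 0 of 20160 were called male-higher. These calls rest on the contrasts that chose the genes, and nothing is read from them.

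The member with the largest difference held at both stages was Nfu_g_1_006401. At 0 dph it had 66.0 and 79.3 CPM in the 2 female trunks and 249.6, 271 and 183 CPM in the 3 male trunks. At 3 dph it had 4.18, 4.33 and 2.95 CPM in females and 12.8, 5.21 and 10.00 CPM in males. The level was thus highest in males at hatching and far lower in both sexes 3 days later, with the male libraries still above the female ones.

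Nfu_g_1_022520 was the most abundant of the 10 members with the largest differences. It had 145 and 285 CPM in females and 544, 698 and 752 CPM in males at 0 dph. At 3 dph it had 83.2, 84.5 and 88.9 CPM in females and 216, 90.2 and 223 CPM in males. Male replicate 2 of 3 dph was close to the females, and the other male libraries were well above them. Nfu_g_1_003282 had the same arrangement, with 16.2, 17.4 and 16.3 CPM in females and 39.4, 17.9 and 49.4 CPM in males at 3 dph. At 0 dph it had 126 and 79.7 CPM in females and 132, 314 and 257 CPM in males, so that male replicate 1 was just above the higher female.

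Nfu_g_1_005952 had 100.3 and 113 CPM in females and 141, 270.5 and 241 CPM in males at 0 dph. It had 36.6, 36.7 and 35.9 CPM in females and 82.7, 48.3 and 98.6 CPM in males at 3 dph. Its difference was near 2-fold at both stages (0.97 and 0.99 on the log2 scale). Nfu_g_1_007549 had 46.4 and 42.6 CPM in females and 61.9, 132 and 122 CPM in males at 0 dph, and 4.74, 2.92 and 3.82 CPM against 7.83, 5.30 and 12.7 CPM at 3 dph. Nfu_g_1_007156 was low at hatching, with 1.14 and 2.23 CPM in females and 5.95, 5.14 and 3.24 CPM in males. Unlike most members it was higher at 3 dph, with 5.15, 4.50 and 4.69 CPM in females and 13.4, 9.11 and 9.10 CPM in males.

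The remaining unnamed genes among these 10 were of low to medium abundance. Nfu_g_1_013753 differed by 1.496 at 0 dph and 0.92 at 3 dph, Nfu_g_1_015870 by 1.04 and 0.92, and Nfu_g_1_013567 by 1.33 and 0.92, all on the log2(CPM + 1) scale. In Nfu_g_1_015870 the male libraries stood clear of the females at both stages, with 3.66, 4.29 and 3.79 CPM in females and 9.78, 6.54 and 8.83 CPM in males at 3 dph.

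Both chitinase members belonged to the more abundant genes of the list. The chia.3 member (Nfu_g_1_001861) had 114 and 76.5 CPM in females and 137, 368 and 229 CPM in males at 0 dph. It had 20.1, 32.2 and 32.0 CPM in females and 74.8, 41.3 and 47.1 CPM in males at 3 dph. The chia.6 member (Nfu_g_1_001997) had 101 and 132 CPM in females and 210.1, 260.4 and 217 CPM in males at 0 dph, and 33.2, 38.4 and 30.8 CPM against 86.8, 44.0 and 55.4 CPM at 3 dph. At 10 dpf both were below 1 CPM in all 6 libraries.

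The available symbols covered 6 genes named after acidic chitinases, a list written after the values were seen. Of the 4 that were not members, the second chia.6 gene (Nfu_g_1_001929) was separated at 3 dph but not at 0 dph, where the females had 21.0 and 3.36 CPM and the males 33.7, 96.6 and 9.19 CPM. Neither of the other chia.3 genes nor chia.4 (Nfu_g_1_002419) was separated in this direction at either stage. Nfu_g_1_001838, also named chia.3, had a mean of 27.7 CPM in females and 19.2 CPM in males at 3 dph. Summed over the 6 genes, the level was 257 and 293 CPM in females and 414 to 800 CPM in males at 0 dph. The sum includes the 2 members, which were chosen for this difference, so its separation is partly set by the rule. It says nothing about the other 4. Reads of such closely related genes can be split or dropped in counting, so the share of each copy is uncertain.

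The nuclear receptor gene hnf4a (Nfu_g_1_001809) was a strongly expressed member at hatching. It had 275 and 298 CPM in females and 361, 527 and 524 CPM in males at 0 dph, and 23.6, 27.9 and 22.8 CPM in females and 46.3, 30.04 and 47.9 CPM in males at 3 dph. The difference was 0.69 at 0 dph and 0.70 at 3 dph on the log2 scale, smaller than the median of the members at both stages.

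The sugar transporter gene slc5a9 (Nfu_g_1_000923) had 7.15 and 8.26 CPM in females and 11.9, 21.1 and 15.03 CPM in males at 0 dph. At 3 dph it had 6.97, 7.35 and 5.87 CPM in females and 17.3, 8.48 and 15.6 CPM in males, close to the levels at hatching. FOLR4 (Nfu_g_1_000709) had 71.8 and 67.8 CPM in females and 143, 238 and 168 CPM in males at 0 dph. At 3 dph the females had 35.0, 39.8 and 41.9 CPM and the males 72.0, 42.2 and 118 CPM, and male replicate 2 exceeded the highest female by a narrow margin.

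The genes with zebrafish clone names had small differences. The gene zgc:101640 (Nfu_g_1_001127) had 33.2 and 25.5 CPM in females and 33.4, 52.6 and 45.4 CPM in males at 0 dph, where male replicate 1 lay just above female replicate 1. It had 8.78, 10.99 and 8.75 CPM and 16.2, 12.9 and 14.0 CPM at 3 dph. In the gene si:dkey-70p6.1 (Nfu_g_1_001538) the trunk levels were low, with 3.09 and 2.23 CPM in females and 4.92, 5.60 and 3.19 CPM in males at 0 dph. At 3 dph they were 1.149, 1.72 and 1.04 CPM in females and 2.33, 2.03 and 2.73 CPM in males.

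The members nearest to the minimum difference of 0.5 were Nfu_g_1_010429, Nfu_g_1_009973 and Nfu_g_1_023379, whose smaller difference was 0.525, 0.518 and 0.504. The nearest genes outside were Nfu_g_1_007364, Nfu_g_1_016367 and Nfu_g_1_020238 with 0.493, 0.492 and 0.490. In all, 180 genes were separated at both stages and overlapping at 10 dpf with any size of difference, and 128 of them were under 0.5.

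The age course was tested on the mean of both sexes, which does not use the sex difference. From 10 dpf to 0 dph, 47 of the 52 members rose and 4 fell by DESeq2 with an adjusted p under 0.05. Of all 23899 genes tested, 34.9% rose and 34.0% fell. Of the genes with a mean trunk level of at least 1 CPM, the condition that every member met, 41.5% rose and 33.9% fell. The median log2 change of the members was 5.00, or 32.0-fold, beside 0.15 in the genes with that mean. Tested by edgeR, 47 rose and 4 fell, and of all 21728 genes 8172 rose and 7890 fell. DESeq2 scales libraries by the median ratio of their genes, whereas CPM divides by the total, and with totals in DESeq2 the median change of all genes tested moved from -0.01 to -0.76 and that of the members from 5.00 to 4.24. The rule set a minimum level in the trunk and none in the embryo, and libraries with few counts overlap more readily, so this direction is partly set by the choice of genes.

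The level at 10 dpf was low for most members. The mean over the 6 embryo libraries was under 1 CPM for 27 of the 52 genes (51.9%), beside 7.87% of all genes with the same trunk mean. Between 5 and 12 members per library had 3 counts or fewer. All libraries of 0 dph lay above all libraries of 10 dpf for 44 members (16.6% of the genes with a mean of 1 CPM), and all below for 4 (43.5%).

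Large rises were seen in genes that were close to 0 in the embryo. Nfu_g_1_022520 rose from between 0.554 and 0.855 CPM over the 6 embryo libraries (log2 change 9.88, SE 0.30, adjusted p = 1.70e-241 by DESeq2). The chia.3 member rose from between 0.257 and 0.652 CPM (log2 change 9.49, SE 0.36, adjusted p = 9.92e-152 by DESeq2), and FOLR4 from between 0.205 and 0.401 CPM (log2 change 9.34, SE 0.32, adjusted p = 6.31e-185 by DESeq2). For hnf4a the embryo level was between 4.01 and 9.93 CPM, and the log2 change to 0 dph was 6.83. The sugar transporter gene slc5a9 was already at between 3.14 and 6.36 CPM in the embryo and rose by 1.99 on the log2 scale. These genes therefore differed widely in how far the trunk at hatching exceeded the embryo.

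The 4 genes that fell in the mean of both sexes were si:dkey-70p6.1, Nfu_g_1_011875, Nfu_g_1_012700 and Nfu_g_1_020241. Among male libraries alone the log2 changes were -0.87, 0.05, -0.32 and -0.83 in this order, and among female libraries -2.04, -1.54, -0.76 and -1.91. Nfu_g_1_011875 thus did not fall in males. The rule used the sex difference at 0 dph, so these values per sex are a description. The gene si:dkey-70p6.1 had between 9.83 and 19.8 CPM in the embryo and between 2.23 and 5.60 CPM at 0 dph (log2 change -1.46, SE 0.26, adjusted p = 9.72e-08 by DESeq2). Nfu_g_1_011875 had the highest embryo level of the members, between 107 and 201 CPM, and between 36.4 and 101 CPM at 0 dph. All 4 fell from 0 to 3 dph. The gene Nfu_g_1_024966 changed by 0.71 from 10 dpf to 0 dph and did not pass the test. Whole embryos and trunks differ in tissue as well as in age, and these cannot be told apart here. In bulk samples of this kind, a change in the number of cells of a type and a change in RNA per cell cannot be told apart either.

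From 0 to 3 dph, within trunk samples, most members fell. By DESeq2, 40 were lower at 3 dph and 7 were higher, with 5 that did not pass the test. Of all 23930 genes tested, 25.5% were lower and 25.9% higher, and of those with a mean trunk level of at least 1 CPM, 29.3% were lower and 30.3% higher. The median log2 change of the members was -1.32, a 2.497-fold lower level at 3 dph, and that of the genes with this mean was -0.0003. Tested by edgeR, 40 were lower and 7 higher, and of all 21435 genes 6173 were lower and 5835 higher. Among male libraries alone 38 members were lower and 5 higher, with a median of -1.43. Of all 22642 genes tested there, 4504 were lower and 4419 higher. Among female libraries alone 35 members were lower and 5 higher, with a median of -1.21. Of all 21660 genes tested there, 4454 were lower and 4413 higher. The difference between the sexes in this change was not tested, because the rule used the sex difference at both ages. All libraries of 3 dph lay below all libraries of 0 dph for 24 members (19.9% of genes) and above for 2 (11.3%).

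The 5 largest falls included hnf4a and 4 genes without a symbol. Nfu_g_1_006401 fell from between 66.0 and 271 CPM to between 2.95 and 12.8 CPM (log2 change -4.28, SE 0.24, adjusted p = 4.22e-68 by DESeq2). Nfu_g_1_007549 fell by 3.41 and hnf4a by 3.36 on the log2 scale, the latter with an SE of 0.18 and an adjusted p of 4.17e-75 by DESeq2. For hnf4a this was a 10.2-fold lower level, in which even the highest library of 3 dph, a male at 47.9 CPM, was below every library of 0 dph. Nfu_g_1_011213 changed by -2.80 and Nfu_g_1_022341 by -2.79. The chitinase members fell as well, with a log2 change of -1.78 for chia.3 and -1.66 for chia.6 (adjusted p = 1.21e-09 and 3.59e-14 by DESeq2).

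Smaller falls that passed the test were seen in zgc:101640 (log2 change -1.45), FOLR4 (-0.87) and si:dkey-70p6.1 (-0.83). The sugar transporter gene slc5a9 changed by -0.04 with an adjusted p of 0.915 by DESeq2. Nfu_g_1_013567, Nfu_g_1_008653, Nfu_g_1_010429 and Nfu_g_1_005596 were the other members without a call, with log2 changes between -0.15 and 0.27.

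The 5 largest rises were in Nfu_g_1_022335, Nfu_g_1_008383, Nfu_g_1_016845, Nfu_g_1_007156 and Nfu_g_1_017228. Nfu_g_1_022335 had 8.18 and 30.4 CPM in females and 36.8, 43.5 and 43.4 CPM in males at 0 dph. At 3 dph it had 124, 119 and 124 CPM in females and 220.0, 134 and 326 CPM in males (log2 change 2.71, SE 0.32, adjusted p = 2.07e-16 by DESeq2). Every library of 3 dph was above every library of 0 dph, and the males were above the females at either age. The other 4 rose by 1.39 to 1.65 on the log2 scale. The identifier of Nfu_g_1_022335 is close to those of Nfu_g_1_022330 and Nfu_g_1_022341, which are members too and fell by 0.77 and 2.79 on the log2 scale. Positions on the genome were not used here.

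Over both steps, 36 members rose to hatching and fell thereafter, 6 rose at both steps, 5 rose and then did not pass the test, 4 fell at both steps, and 1 passed the test only at the second. The plot of levels by stage shows the peak at 0 dph in both sexes. The median of the group means was 0.727 CPM in female and 0.803 CPM in male embryos, 17.2 and 31.1 CPM at 0 dph, and 5.66 and 11.7 CPM at 3 dph.

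**Figure D2:**
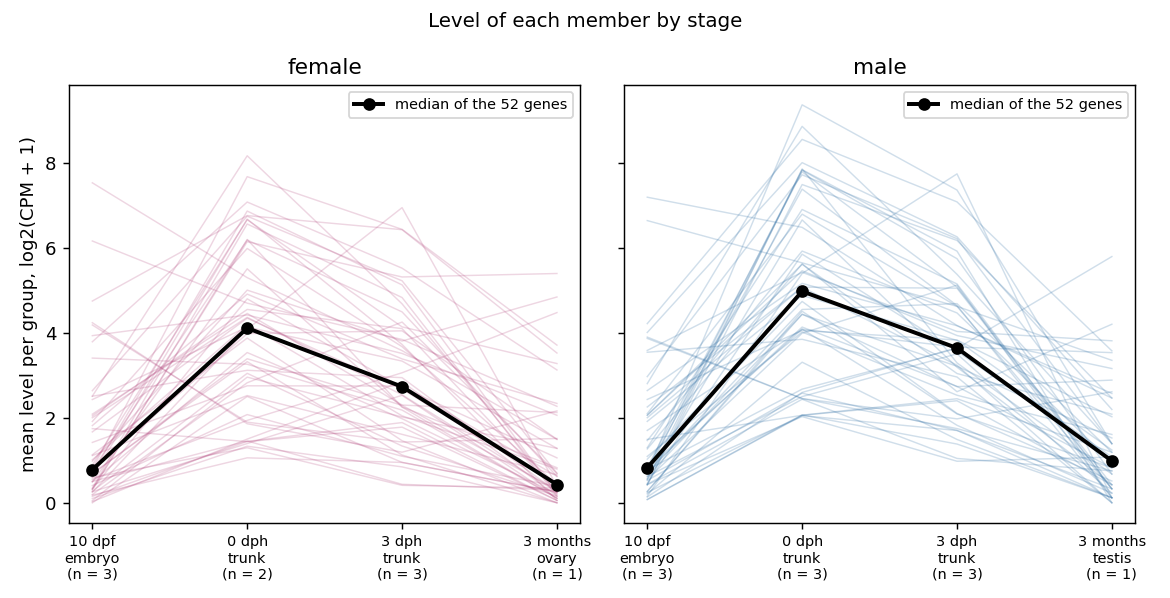
Mean level of each of the 52 genes per group in log2(CPM + 1) (thin lines) against stage, for females (left) and males (right), with the median of the genes as a black line and the number of libraries under each stage; the gonads had 1 library each. The black line peaks at 0 dph in both sexes, at 4.11 in females and 4.98 in males, and is under 1 in the embryo and in both gonads.

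In the adult gonads most of these genes were weakly expressed. The median level was 0.348 CPM in the ovary and 0.981 CPM in the testis. Both libraries were under 1 CPM for 23 of the 52 members (44.2%), beside 10.2% of all genes with a mean trunk level of at least 1 CPM. Of the 713 genes that met the rule with the sexes exchanged, 0.140% were under 1 CPM in both gonads. The testis was below all 6 male trunk libraries for 45 members (30.5% of genes) and above all of them for 1 (47.7%), Nfu_g_1_017228. The ovary was below all 5 female trunk libraries for 46 (37.4%) and above for 2 (44.7%), Nfu_g_1_017228 and si:dkey-70p6.1. Gonads and trunks differ in both tissue and age, which cannot be told apart, and with 1 library per sex there is no replicate check of any gonad value.

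The testis exceeded the ovary by at least 2-fold on the log2(CPM + 1) scale for 12 members (28.3% of genes), and the ovary exceeded the testis for 5 (18.9%). The median log2 ratio of testis to ovary was 0.27, beside 0.22 over all genes with the same trunk mean, and -0.73 over the genes of the exchanged rule. It was 1.47 in the 11 genes whose male libraries lay above the female libraries at 10 dpf as well as at 0 and 3 dph, of which 9 had at least 2-fold more in the testis. How far the ratio of the members lay from that of all genes depended on the pseudocount, the scaling and the filter on low counts: for the 37 members with at least 10 counts in both gonads together the median was 0.70, beside 0.26 over all genes with as many.

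The members with the highest testis to ovary ratios were Nfu_g_1_007007, Nfu_g_1_013567, slc5a9, Nfu_g_1_009973 and Nfu_g_1_002012. Nfu_g_1_007007 had 17.4 CPM in the testis and 0.734 CPM in the ovary, a log2 ratio of 3.41. Nfu_g_1_013567 had 10.6 CPM against 0.541 CPM, and slc5a9 3.07 CPM against 0.193 CPM. The highest testis level was that of Nfu_g_1_017228, with 54.5 CPM in the testis and 21.3 CPM in the ovary, above its trunk levels in either sex.

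In 5 members the ovary was higher by at least 2-fold, and in 19 by any amount. Nfu_g_1_003440 had 27.7 CPM in the ovary and 0.939 CPM in the testis, a log2 ratio of -3.89. FOLR4 had 41.1 CPM in the ovary and 4.52 CPM in the testis (-2.93). Its ovary level lay near that of female trunks at 3 dph, 35.0, 39.8 and 41.9 CPM. Nfu_g_1_003282, Nfu_g_1_022520 and si:dkey-70p6.1 followed with log2 ratios of -2.85, -2.32 and -1.41. Among the members with the largest trunk differences, Nfu_g_1_022520 and Nfu_g_1_003282 were thus male-higher in the trunk and ovary-higher in the adult gonad.

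The 2 chitinase members were near the floor in the gonads, and hnf4a was low. Summed over all 6 chitinase genes, the level was 58.2 CPM in the ovary and 23.0 CPM in the testis. The chia.6 member had 0 counts in the testis, which allows up to 0.256 CPM, and 4 counts in the ovary. The chia.3 member had 7 counts in the testis and 3 in the ovary. For hnf4a there were 19 counts (1.62 CPM) in the testis and 5 (0.193 CPM) in the ovary, a log2 ratio of 1.14. Only 8 members were above 10 CPM in a gonad, beside 66.8% of genes with the same trunk mean. Floors of 3 counts cover counting error only.

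**Figure D3:**
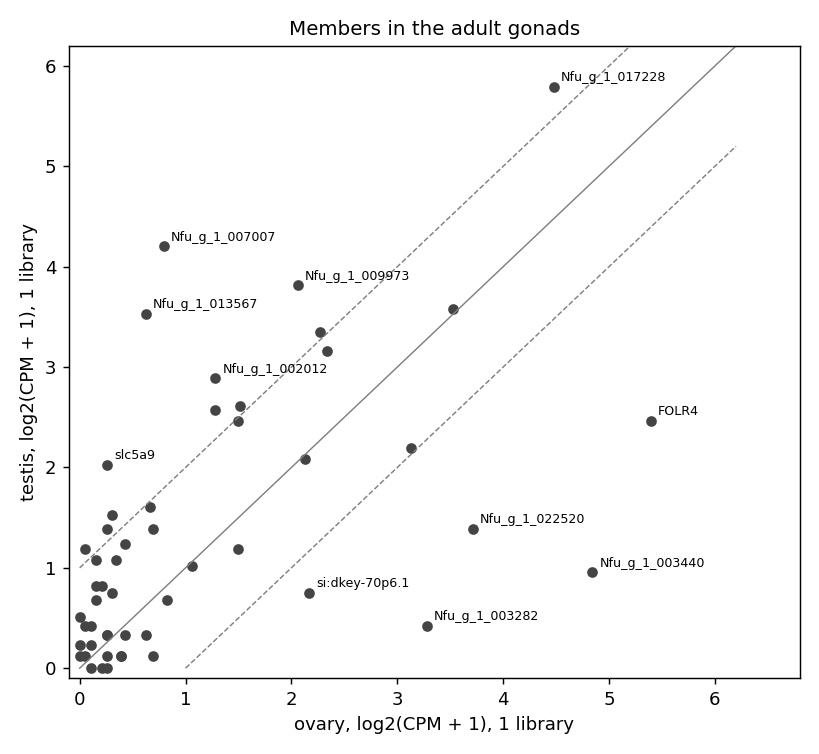
Level of each of the 52 genes in the testis library (vertical axis) against the ovary library (horizontal axis), in log2(CPM + 1), each point 1 gene; the solid line marks equal levels and the dashed lines a 2-fold difference. Points gather near 0 on both axes, with 12 genes above the upper and 5 below the lower dashed line.

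The members varied together between libraries of the same group. In male 3 dph replicate 2, 48 of the 52 were below the mean of their group, by 0.43 on average on the log2 scale, while 65.7% of all genes with a mean of 1 CPM were above theirs. In male 0 dph replicate 1, 40 were below, by 0.24 on average, and in male 0 dph replicate 2, 47 were above, by 0.26. The correlation of 2 members in their deviations from the group means over the 11 trunk libraries had a median of 0.48, and 87.5% of the 1326 pairs were positive. Over all pairs of genes with a mean of 1 CPM the median was 0.11, with 58.5% positive. All pairs share the same libraries, so these values describe the libraries and are no test. The rule also chose the members, unlike all genes, from the levels in these 11 libraries. Shared deviations of the members may therefore be partly set by the choice.

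**Figure D4:**
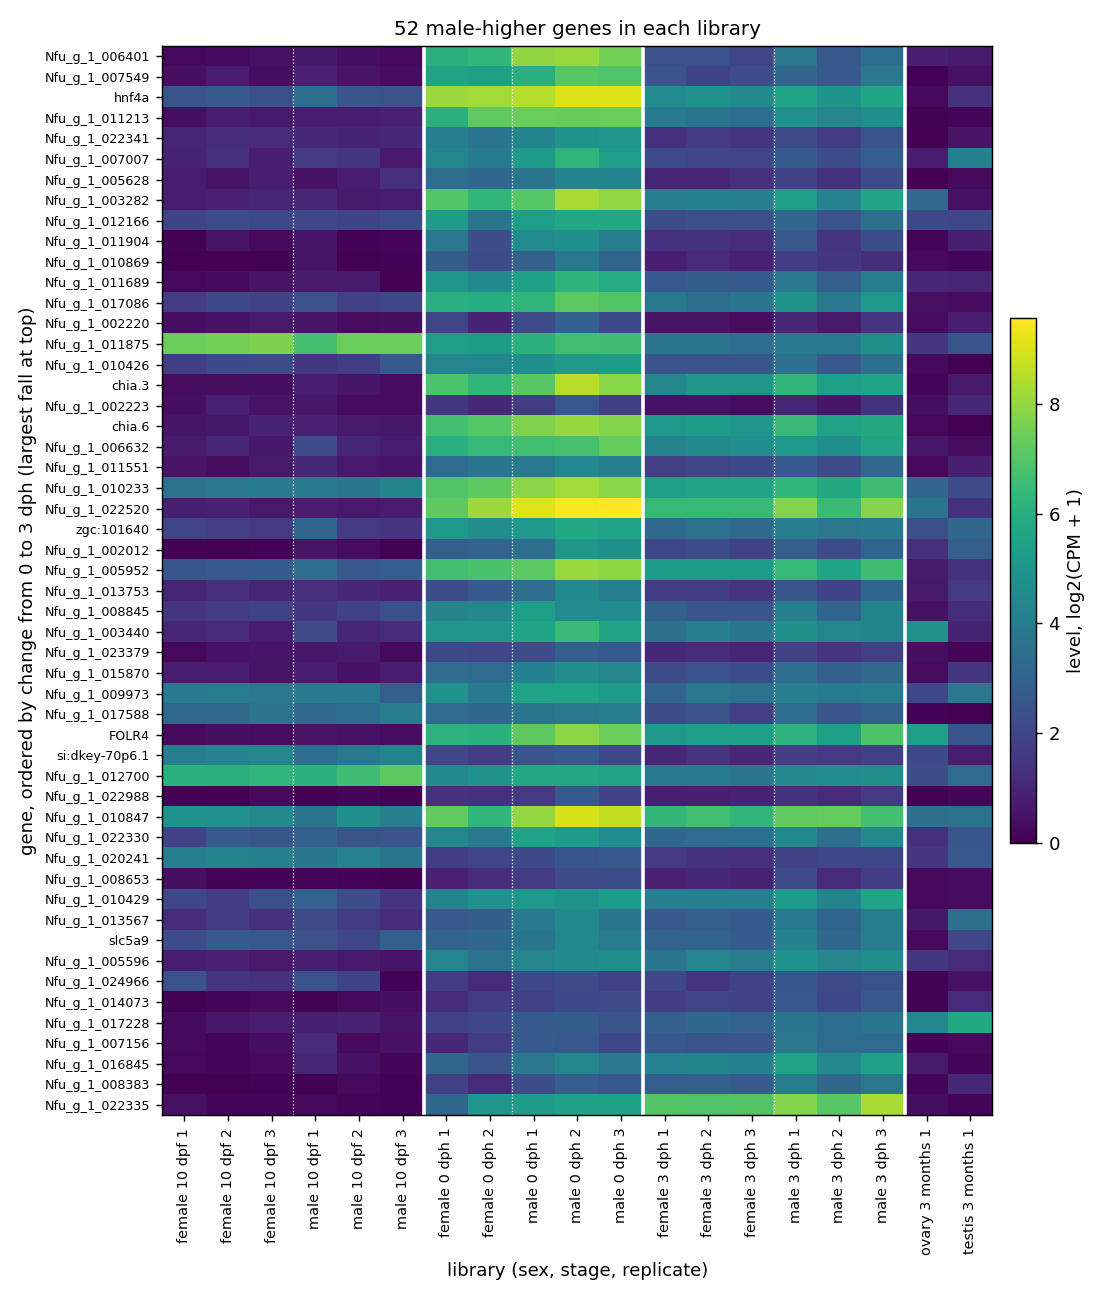
Level of the 52 genes (rows, ordered by the change from 0 to 3 dph with the largest fall at the top) in each of the 19 libraries (columns, by sex, stage and replicate), as colour in log2(CPM + 1) from 0 (dark) upward. Most rows are dark at 10 dpf and in the gonads and brightest in the male libraries of 0 dph, and male 3 dph replicate 2 resembles the female libraries beside it.

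To see which other genes behaved alike, named genes were ranked by their correlation with the mean of the members over the 17 libraries of the embryo and trunk. The closest were MYO7B, a myosin of the brush border in mammals (Pearson's r = 0.99), abcb4, a transporter of the ABC family (0.98), and slc47a2, an exporter of organic cations (0.98). They were followed by bin2a, dhrs11a, krt18, POR, ugt5a4, CABZ01074081.2 and pdzd3b. Of these, krt18 (Nfu_g_1_001656) encodes a keratin of simple epithelia, and POR and ugt5a4 encode enzymes known from the metabolism of foreign compounds. A second krt18 gene (Nfu_g_1_001524) behaved differently, with means of 270 CPM in females and 206 CPM in males at 0 dph. At 10 dpf it already had 345 and 335 CPM. Unlike most members, dhrs11a and POR were well expressed in the embryo and the gonads. For dhrs11a the means were 47.0 CPM in female and 47.7 CPM in male embryos, and for POR 57.2 and 61.2 CPM. In ovary and testis dhrs11a had 95.0 and 63.9 CPM, and POR 111 and 341 CPM. The sex difference of dhrs11a at 3 dph was 0.03 on the log2 scale. The 17 libraries span the differences between ages, and these correlations are descriptions over shared libraries.

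MYO7B had a mean of 98.4 CPM in females and 214 CPM in males at 0 dph, and 15.8 and 30.5 CPM at 3 dph. It was separated between the sexes at 0 dph, but at 3 dph its lowest male library, replicate 2 at 16.4 CPM, lay below the highest female at 18.1 CPM. For abcb4 the means were 151 and 354 CPM at 0 dph and 30.9 and 42.7 CPM at 3 dph, also without a full separation at the later age.

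A list of 17 genes of the intestinal epithelium, written after the values were seen and holding none of the 52 members but MYO7B among its genes, was read beside them. Of its symbols 7 could be matched, to 14 genes, of which 12 reached the mean of 1 CPM. The other 2 were copies of mep1b at or near 0 in all trunk libraries. The male mean was higher for 9 of the 12 at 0 dph and for 9 at 3 dph. Male libraries lay above all female libraries for 2 genes at 0 dph and 5 at 3 dph, and below all of them for 0 and 2. Of all genes with that mean, 6.62% and 11.5% had the male libraries above. Only 1 of the 12 was separated in this direction at both stages, as the rule required of members. The 2 genes below all females at 3 dph were MEP1B copies. Nfu_g_1_001060 had 8.88 to 11.4 CPM in females and 2.51 to 7.30 CPM in males, and Nfu_g_1_001098 had 9.36 to 10.4 and 7.35 to 8.83 CPM. Both cdh17 genes (cdh17 encodes a cadherin of the gut lining) were higher in males on average. Of these, Nfu_g_1_001201 overlapped at 0 dph, with 65.9 and 36.6 CPM in females and 39.0, 161 and 117 CPM in males. Nfu_g_1_001323 had 115 and 127 CPM in females and 153, 219 and 204 CPM in males at 0 dph.

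The summed level of the 12 genes was 448 and 482 CPM in females and 519, 887 and 850 CPM in males at 0 dph. It was 233 to 255 CPM in females and 373, 290 and 447 CPM in males at 3 dph. The summed level of the 52 members was 1997 and 2103 CPM in females and 3593, 5354 and 4650 CPM in males at 0 dph, and 744 to 816 CPM in females and 1603, 1002 and 1737 CPM in males at 3 dph. Male 0 dph replicate 1 and male 3 dph replicate 2 were the lowest male libraries of their age in both sums. The intestinal list was written with the values known and includes MYO7B, the named gene closest to the members, so this likeness is no test. The 5 genes of the liver and plasma list had 1089 and 2277 CPM in females and 1465 to 1634 CPM in males at 0 dph, and 3292 to 4825 CPM and 3927 to 4244 CPM at 3 dph, with overlap at both ages. The part of tissue content in the differences of the members was not tested.

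**Figure D5:**
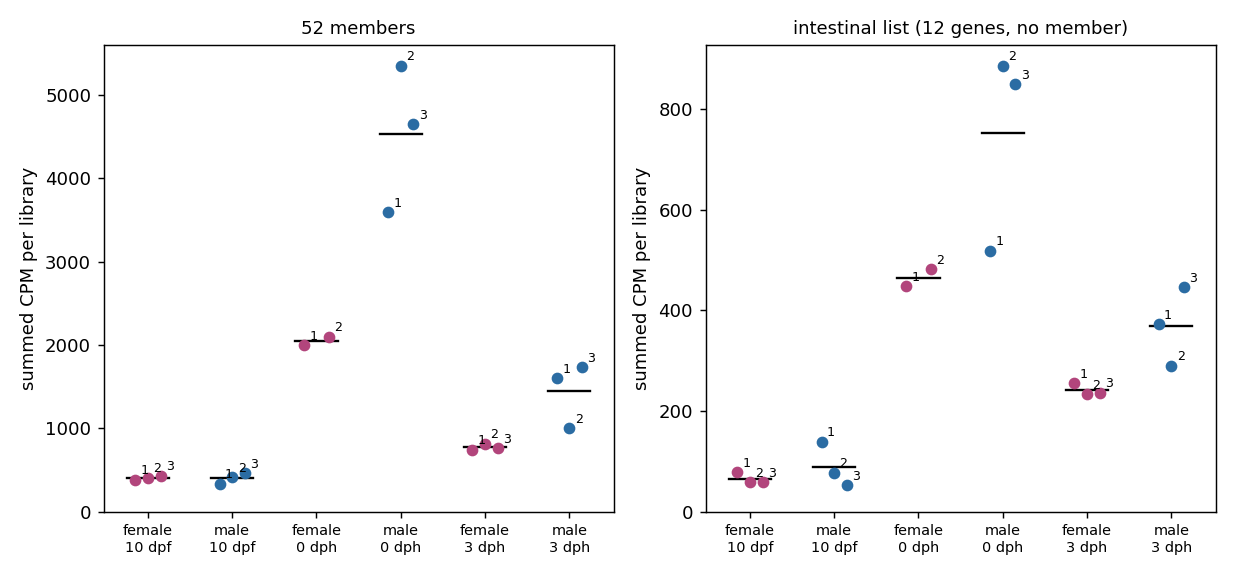
Summed CPM of the 52 genes (left) and of 12 genes of an intestinal list that holds none of them (right) in each library of the embryo and trunk stages, by sex and stage; points are libraries labelled with the replicate number, bars are group means, and both axes start at 0. In both panels the male libraries of 0 dph are highest, with replicate 1 the lowest of them, and replicate 2 is the lowest male library of 3 dph. The list was written after the values were seen and includes MYO7B, the named gene that correlated most with the members, so the likeness is no test.

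Marker lists of germ cells, oocytes, meiosis, testis supporting cells, BMP and TGF-beta signalling, sterol synthesis and 6 further tissues or responses matched 42 genes, of which 35 reached the mean of 1 CPM and 0 were members. Few symbols could be matched: 1 of 15 for germ cells, 1 of 21 for oocytes and 3 of 21 for testis supporting cells. With 45 members lacking a symbol, the count of 0 cannot show whether such genes were among the members. The only matched gene with male libraries above female libraries at both trunk stages was pctp (phosphatidylcholine transfer protein). It was male-higher at 10 dpf too and so failed the rule. The libraries were separated in the opposite direction at both stages for 5 genes, bmpr2b, tdrd6, sybu, rad21l1 and a krt5 gene. The germ cell gene tdrd6 had 52.7 to 62.2 CPM in female and 3.81 to 8.44 CPM in male trunks at 3 dph.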

How the data were processed

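RNA extraction used QIAzol, library preparation the TruSeq RNA kit and sequencing an Illumina HiSeq in rapid mode. The tools bcl2fastq (version 1.8.4) and STAR are named in the submitters' processing notes. Reads that passed filters on base quality, read length and sequence complexity were aligned by the authors with STAR, and GenomicAlignments gave the counts per gene. The deposited values are raw counts, not normalised, in 1 table of 19 libraries, all matched to samples by their titles. The use of strand in counting is not given in the sources used here, and no molecular identifiers are named, so copies made by PCR may be among the counts. Reads of near-identical genes can be split or dropped.

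CPM and log2(CPM + 1) were computed from the counts with Python (version 3.11.15), and 52 members were found by the rule. Members and gene lists were chosen with earlier results of these data known. Age was tested with DESeq2 (version 1.42.0, R version 4.3.3) on raw counts, with 4 group means in each fit (0 and 3 dph, or 10 dpf and 0 dph), averaged over the sexes, with Benjamini-Hochberg adjustment over all genes tested and a threshold of 0.05. On simulated data the 0 to 3 dph fit recovered 88.8% of genes changed by 1 and 98.2% of those changed by 2 on the log2 scale, with 21.0% of calls false. For 10 dpf to 0 dph these were 68.6%, 98.2% and 27.8%. The simulation changed 89 and 111 of 25033 genes in the first fit and 86 and 114 of 25061 in the second. All changed genes had many counts, so recovery of genes with few counts was not tested. Both false shares lay above the 0.05 that the adjustment aimed at. In the data far more genes were called, so the simulation cannot show the false share of the age counts. edgeR (version 4.0.16), other scalings and filters, a replicate block and leaving out each library were run as alternatives. Named were the 10 members with the largest smaller difference of both stages, all with a symbol, the 5 largest rises and falls from 0 to 3 dph, the 5 highest and lowest testis to ovary ratios among members with at least 10 gonad counts, and the 3 members and 3 other genes nearest to the threshold. Others were named after their values were seen. Gene symbols come from the study's orthologue table, held here only in part. In a RefSeq table of the assembly NfurGRZ-RIMD1 0 of the identifiers matched, so no positions or sequences are given.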

Additional observations from a re-analysis of the deposited data

Results flagged for a closer look

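Of the 52 male-higher trunk genes, 5 had at least 2-fold more in the ovary than in the testis library. Among all genes with a mean trunk level of at least 1 CPM the share was 18.9%, so the count is no trait of the members. In the trunk, all male libraries lay above all female ones at 0 and 3 dph, as the rule required. The log2 ratios of testis to ovary were -3.89 for Nfu_g_1_003440, -2.93 for FOLR4 (Nfu_g_1_000709), -2.85 for Nfu_g_1_003282, -2.32 for Nfu_g_1_022520 and -1.41 for si:dkey-70p6.1 (Nfu_g_1_001538). The difference between trunk and gonad was not tested, as there was 1 library per gonad. With a pseudocount of 5 CPM the ovary was at least 2-fold higher for 4 members.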

How the results depend on the processing

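Under the alternatives for scaling, filter, tool and libraries, no age count of the members moved by over 1.5 times other than those given here. Counts of all genes moved more. With library totals as size factors, 5080 rose and 12499 fell of 24401 from 10 dpf to 0 dph, against 8346 and 8123 of 23899. With an additional 2-fold threshold, 2724 were higher and 2744 lower at 3 dph than at 0 dph, against 6196 and 6092, of 23930. From 10 dpf to 0 dph, the number of members that fell was 4, but 1 among male libraries alone and 2 with an additional 2-fold threshold. Over all genes, 6014 of 23091 fell among male libraries alone and 5826 of 23899 with that threshold. Leaving out each library in turn gave 47 members that rose and 3 to 4 that fell, and from 0 to 3 dph 38 to 40 that fell and 6 to 7 that rose. Over all genes tested (23359 to 25378), 7712 to 8634 rose and 7425 to 8307 fell from 10 dpf to 0 dph. From 0 to 3 dph (22906 to 23420 genes), 5078 to 6091 fell and 5533 to 6195 rose. The numbers of the labels do not pair the ages: same-numbered libraries correlated between -0.37 and 0.05 in their deviations. Same-numbered embryos of both sexes correlated between 0.19 and 0.63. The labels give no such pairing, and only the replicate block treated them as pairs. With the replicate block, chosen after seeing the data, DESeq2 called 40 genes higher in males and 93 in females at 10 dpf, against 11 and 35 without it, and 0 of 20 members with an adjusted p, against 0 of 34; at an unadjusted p under 0.05 the block had 1 member. The rule used this contrast, and nothing is read from these counts. With the replicate block, 39 members fell and 7 rose from 0 to 3 dph, and 47 rose and 3 fell from 10 dpf to 0 dph. Over all genes the block gave 5446 that fell and 5615 that rose of 23446 from 0 to 3 dph. From 10 dpf to 0 dph it gave 8261 that rose and 7803 that fell of 23973. Of 588 values of the named genes per step, 4 and 1 lost their call, and 0 changed direction. Library totals as size factors moved the median of all genes by -0.16 from 0 to 3 dph.

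The number of genes that met the rule was 52, and 156 with median-of-ratios scaling, 138 with TMM, 25 with a pseudocount of 5 and 1 with a difference of at least 1. Leaving out each library gave 49 to 144, with 38 to 52 of the members among them. The median sex difference at 0 dph was 0.80 to 1.04 and at 3 dph 0.63 to 1.01 when each library was left out. For the gonads, testis was 2-fold higher in 12 members, and in 5 with median-of-ratios scaling, 26 with a pseudocount of 0.1, 4 with a pseudocount of 5, and 44 of the 156 genes of the other scaling. Ovary was 2-fold higher in 5, and in 11 with a pseudocount of 0.1 and 15 of the 156. The median log2 ratio of the members was 0.27, beside 0.22 over all genes. It was 1.09 beside 0.33 with a pseudocount of 0.1, 0.061 beside 0.11 with a pseudocount of 5, 0.21 beside -0.11 with median-of-ratios scaling, 0.70 beside 0.26 for the 37 members and all genes with at least 10 gonad counts, and 0.39 for the 156. Depth limits the gonad values, since 12 members in the ovary and 15 in the testis had 3 counts or fewer.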
